A study of Mus musculus with 2 samples.

Results

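The genes of oxidative phosphorylation were followed in the mouse line MC3T3-E1, which was established from calvaria and behaves like early osteoblasts, with and without parathyroid hormone (PTH). They were taken by name: the rows of the count table whose symbol is that of a subunit of NADH dehydrogenase (Nduf genes), succinate dehydrogenase (Sdh), the cytochrome bc1 complex (Uqcr), cytochrome c oxidase (Cox4 to Cox8) or ATP synthase (Atp5), or of a protein gene of the mitochondrial genome. Names marked as pseudogenes with -ps were left out, and a row needed 20 or more counts over both libraries. Of 111 rows with such a name, 102 reached that count, 89 of them nuclear genes and 13 mitochondrial. They stood among 16408 rows that reached it and 55487 rows in all. The name pattern also took in 8 assembly factors of complex I (Ndufaf1 to Ndufaf8), and it left out subunits with other names, such as Cyc1 of complex III.

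Oxidative phosphorylation is run by 5 protein complexes in the inner mitochondrial membrane. Complexes I and II take electrons from NADH and succinate, complex III passes them to cytochrome c, complex IV passes them to oxygen, and complex V, the ATP synthase, uses the proton gradient built on the way to make ATP. Complexes I, III, IV and V hold subunits made from both genomes: the catalytic membrane core is partly read from mitochondrial DNA, which is transcribed on both strands as long RNAs that are cut into single mRNAs at the tRNAs between them. In osteoblasts, both glycolysis and oxidative phosphorylation are known to supply ATP for matrix production.

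The study sequenced RNA of 2 cultures, 1 untreated and 1 given 10 nM PTH, the peptide hormone that raises blood calcium and is sensed by osteoblasts through its receptor Pth1r. Both libraries are labelled 1 h, and both cultures came from the same line, kept in α-MEM with 10% serum, plated in 12-well plates at a density of 25000 per cm2, and the hormone was added 24 h after plating. With 1 library per condition there was no replicate, so no p-value was computed, and every ratio compares these libraries and not the conditions. The totals were 66302211 counts untreated and 70036872 with PTH. Of 10 osteoblast markers, all 10 had 20 or more counts over both libraries, Col1a1, Col1a2 and Sparc among the most abundant. Bglap was low (57 counts untreated, 87 with PTH), and Sp7 had 4583 untreated and 1974 with PTH. The osteoblast list summed to 59741.3 CPM (counts scaled to a common library size) untreated and 63049.9 with PTH, and the other lists to far less. The 8 chondrocyte markers summed to 480.2 CPM untreated and 734.6 with PTH, with Acan and Col10a1 at 0. Most of that sum came from Col2a1 (27597 counts untreated, 38400 with PTH) and Sox9 (3264 and 10982). The lists for adipocytes, muscle, macrophages and osteoclasts, and endothelium summed to between 1.996 and 103.9 CPM. Adipoq, Myod1, Adgre1, Ptprc and Cdh5 were among their markers at 0. Other markers of these lists had counts, among them Ctsk (5656 untreated, 6452 with PTH) and Cebpa (830 and 1022). Cd14 had 14 and 173, Acta1 124 and 28, and Vwf 77 and 95. The part of these differences in the ratios given here was not tested, and in bulk RNA fewer cells of a type and less RNA per cell cannot be told apart.

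The single member with a difference beyond 1.5-fold was Ndufa12, an accessory subunit of complex I. Summed with a second row of nearly the same sequence, it was no longer beyond that limit. Ndufa12 (ENSMUSG00000020022, GRCm38 chr10:94198720-94221443, plus strand) had 969 counts untreated and 1703 with PTH. Its ratio of scaled counts (PTH divided by untreated) was 1.71, and its 95% interval from counting error ran from 1.58 to 1.85. A processed pseudogene, Ndufa12-ps (chr5:130188395-130188796, plus strand), is an intronless copy of its mRNA, and 402 bases of the copy align to Ndufa12 with 2 differences. Numbered from the first base of the Ndufa12 coding sequence, with the Ndufa12 base first, these are A135G and T414C. The bases around the first difference are shown because a read from the shared 402 bases that misses both positions matches both rows, with capitals at the differing base and the sequences from the GENCODE M21 transcripts:
Ndufa12, chr10:94199968-94200028: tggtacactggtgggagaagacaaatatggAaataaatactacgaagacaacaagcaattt
Ndufa12-ps, chr5:130188463-130188523: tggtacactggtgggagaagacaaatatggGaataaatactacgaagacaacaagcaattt
The second difference lies near the stop codon, which ends these stretches:
Ndufa12, chr10:94220807-94220861: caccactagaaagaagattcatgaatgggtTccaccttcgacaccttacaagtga
Ndufa12-ps, chr5:130188742-130188796: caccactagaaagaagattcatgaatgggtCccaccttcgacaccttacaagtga

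The pseudogene row had 1503 counts untreated and 655 with PTH, a ratio of 0.423 (0.386 to 0.464), so the pair moved in opposite directions. Of all tested rows, 3.54% had fewer reads beyond 1.5-fold, as Ndufa12-ps did, and 5.39% had more. The copy held 60.8% of the pair's counts untreated and 27.8% with PTH. Summed, the pair had 2472 counts untreated and 2358 with PTH, a ratio of 0.926 (0.875 to 0.981), which lies below 1 where the Ndufa12 row alone lies above it. How reads that match more than 1 place were assigned is not stated, so whether the Ndufa12 difference is one of RNA level was not tested.

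The same question touched the mitochondrial genes. A stretch of chromosome 1 carries nuclear copies of mitochondrial DNA, and 7 of these copies, annotated as unprocessed pseudogenes on the minus strand between 24611535 and 24616197, held 396999 counts untreated and 500039 with PTH in all. Gm28661 (chr1:24614885-24615565) is identical to mt-Co2 over 681 bases and had 89460 counts untreated and 119858 with PTH, against 89583 and 119954 for mt-Co2 itself. Gm10925 matches mt-Atp6 over 678 bases without a difference, Gm28437 matches mt-Co3 over 783, Gm10222 matches mt-Nd4l over 294, and Gm28439 matches the first 876 bases of mt-Nd4. Gm29216 covers the last 492 bases of mt-Co1 and differs at 6 of them. Gm28438 differs from mt-Nd3 at 1 of 345 bases, T3C counted from the first base of mt-Nd3, which is the start codon, and its first bases are shown with that base in capitals:
mt-Nd3, chrM:9459-9491, plus strand: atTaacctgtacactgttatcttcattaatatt
Gm28438, chr1:24613087-24613119, minus strand: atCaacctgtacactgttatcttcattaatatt

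For mt-Co2, mt-Atp6, mt-Co3, mt-Nd3 and mt-Nd4l the copy held between 48.2% and 50.7% of the pair's counts in both libraries. The copies had nearly the same ratios as the genes: 1.30 for Gm28661 and mt-Co2, 1.18 for Gm10925 and mt-Atp6, 1.15 for Gm28437 and mt-Co3, 1.01 for Gm28438 against 1.02 for mt-Nd3, and 1.34 for Gm10222 against 1.33 for mt-Nd4l. Unlike Ndufa12, no mitochondrial member moved by 0.1 or more on the log2 scale when its copies were added. The levels of these genes are therefore uncertain to the extent of the copies. The ratios moved little with them, but this cannot show that the copies leave the ratios untouched. Reads from an identical stretch, split evenly between a gene and its copy, would give both rows the same ratio whatever their source.

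**Figure D1:**
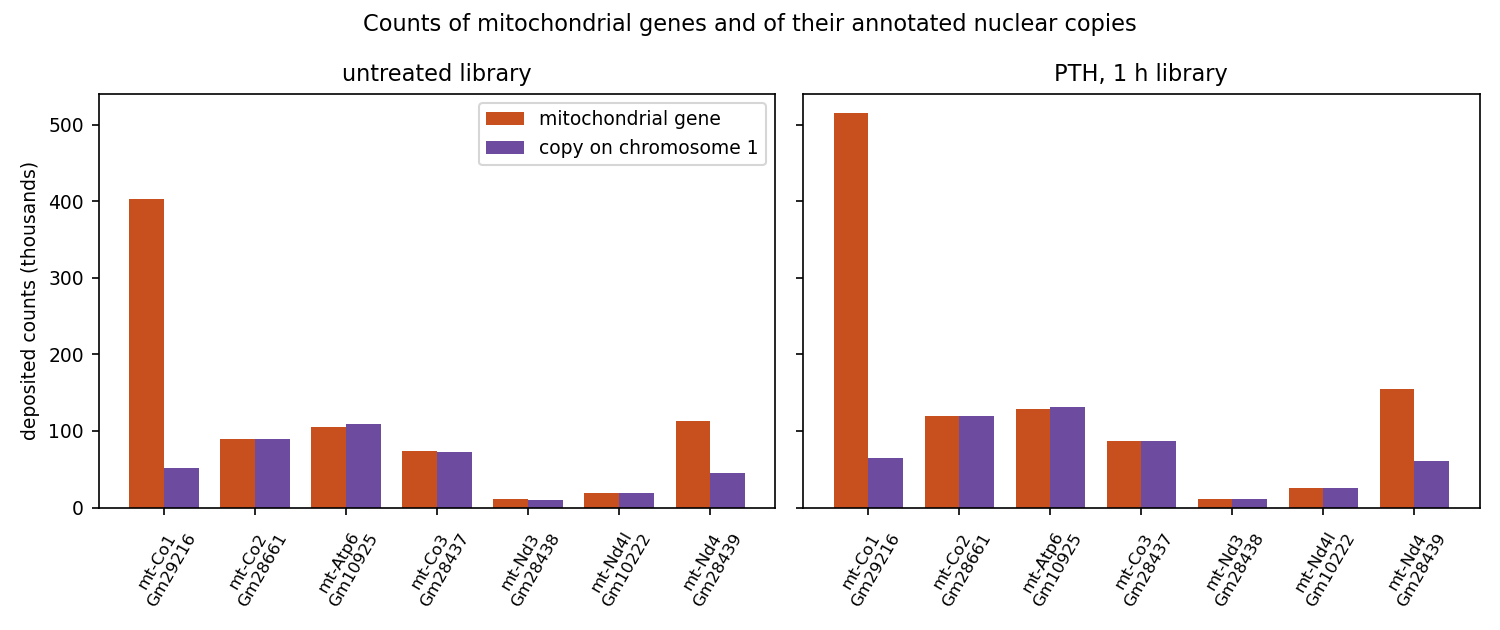
Bars show the deposited counts (axis in units of 1000) of 7 mitochondrial genes and of their annotated copies on chromosome 1, in the untreated library (left) and the PTH library (right). The bars of a pair are nearly equal for mt-Co2, mt-Atp6, mt-Co3, mt-Nd3 and mt-Nd4l, and the copies of mt-Co1 and mt-Nd4, which cover only part of the gene, are shorter.

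Among nuclear members, 32 had at least 1 annotated near-identical copy and 24 had a copy with 20 or more counts. Adding the copies moved 4 of the 89 by 0.1 or more on the log2 scale: Ndufa12, Ndufb4c, Ndufs6b and Uqcrb. Ndufb4c, Ndufs6b and Cox6c2 carry gene-like names but are annotated as processed pseudogenes of Ndufb4, Ndufs6 and Cox6c. Ndufb4c had 263 counts untreated and 234 with PTH, beside 1799 and 2304 for Ndufb4, an accessory subunit of complex I. Uqcrb, a small subunit of complex III, had 2065 counts untreated and 2200 with PTH, and its copy Gm2962 had 330 and 538. The Uqcrb ratio was 1.04 alone and 1.11 (1.05 to 1.17) with the copy. With all copies added, 0 of the 102 members lay beyond 1.5-fold. All members are described from their own rows in what follows.

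**Figure D2:**
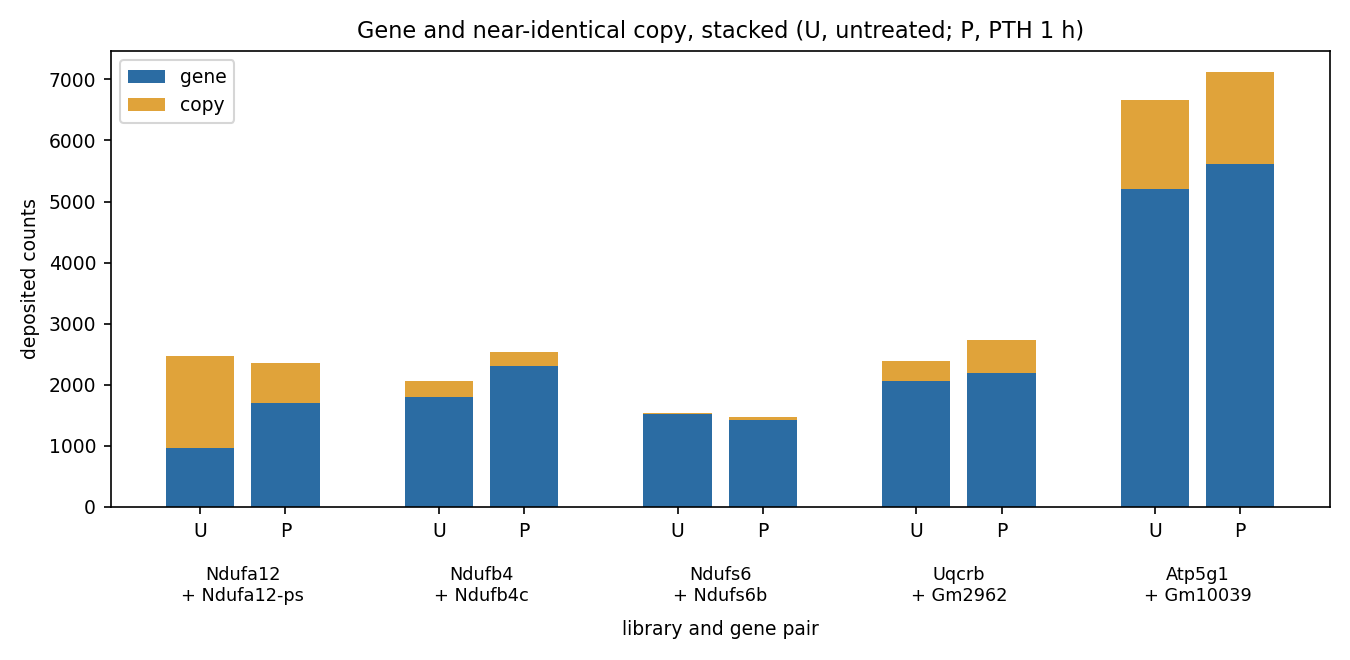
Stacked bars show the deposited counts of 5 nuclear genes (blue) and of 1 near-identical copy each (orange) in the untreated (U) and the PTH (P) library. In the Ndufa12 pair the copy is the larger share untreated and the smaller share with PTH while the height of the stack is nearly the same (2472 and 2358), and in the other pairs the gene holds most of the counts in both libraries.

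Most oxidative phosphorylation genes differed little between the libraries, and the small differences lay more often on the side of PTH. Taking the rows as deposited, 1 of 102 members had an interval wholly beyond 1.5-fold, against 8.93% of all tested rows and 4.82% of the 9549 rows with 1000 or more counts. The whole interval lay above 1 for 64 members and below 1 for 10, and it spanned 1 for 28. Over all tested rows 29.4% lay above 1 and 29.2% below, and among rows with 1000 or more counts, which the members resemble more in depth, 33.8% and 34%. The median log2 ratio of the members was 0.13, and that of all tested rows was 0.00. These intervals hold no variation between cultures. Widened by an assumed coefficient of variation of 0.1 per library, they lay above 1 for 7 members and below 1 for 0, against 10.9% and 9.57% of all tested rows, and widened by 0.2 they did so for 0 members in either direction, against 6.28% and 4.54%.

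The nuclear members also spread somewhat less among themselves than other rows of their depth. The 83 nuclear members with 1000 or more counts had log2 ratios with a standard deviation over genes of 0.163, against 0.393 for the 9549 rows of that depth. That larger value includes extreme rows, from -5.446 to 5.638. The lower and upper quartiles were closer in width, at 0.015 and 0.214 for the 83 members and -0.128 and 0.12 for the 9549 rows. The 89 nuclear members ran from 0.757 for Ndufaf1, an assembly factor, to 1.71 for Ndufa12, with a median log2 ratio of 0.11. Of the 89, 51 lay within 0.15 of 0 on that scale. So did 50 of the 83 with 1000 or more counts and 5469 of the 9549 rows of that depth, which are similar shares. Together the 89 nuclear members had 421107 counts untreated and 469887 with PTH, which was 0.635% and 0.671% of all counts. The 13 mitochondrial members had a median log2 ratio of 0.35 and together 1434032 and 1875599 counts, or 2.16% and 2.68% of all counts. The mitochondrial genes thus held most of the members' counts, and their summed ratio was 1.27 against 1.08 for the nuclear genes.

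**Figure D3:**
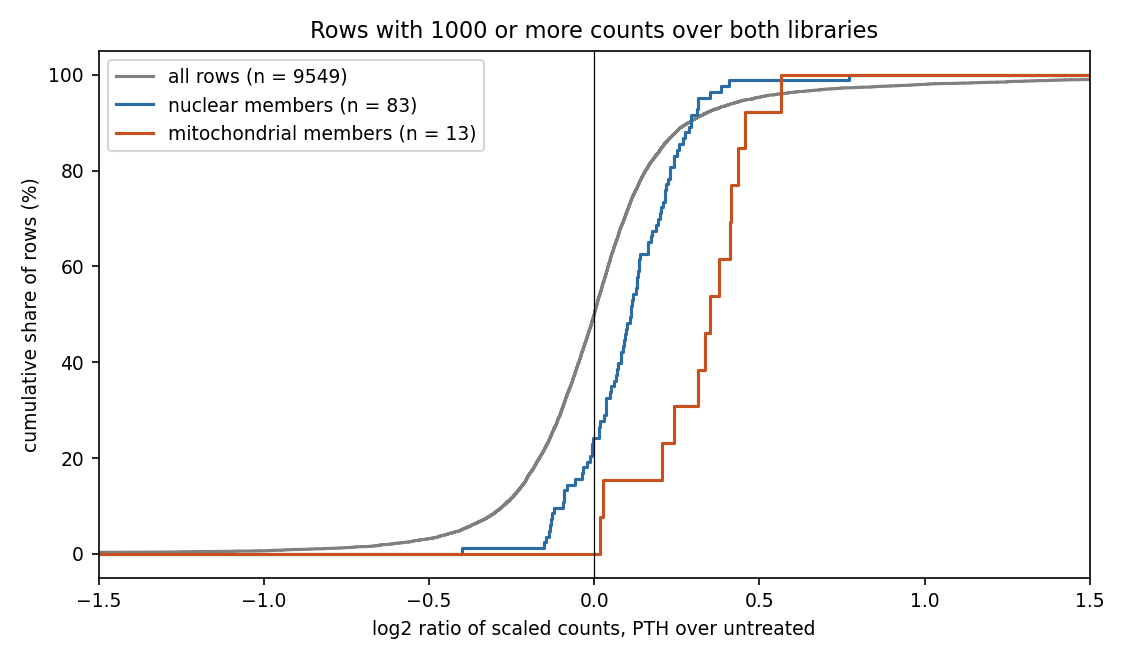
Cumulative share of rows (in percent) against the log2 ratio of scaled counts, PTH over untreated, for all rows with 1000 or more counts (grey, 9549), the nuclear members of that depth (blue, 83) and the mitochondrial members (red, 13). The blue curve is steeper than the grey one and lies slightly to its right, with a median of 0.11, and the red curve lies wholly above 0 with TMM scaling (mt-Nd3 and mt-Atp8 fall below 0 with total-count scaling, and mt-Atp8 with upper-quartile scaling), with a median of 0.35.

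Of the 13 protein genes of the mitochondrial genome, 11 had an interval above 1, with ratios of 1.15 to 1.48, and the same number did so under each of the 3 other scalings. For mt-Nd3 and mt-Atp8 it spanned 1, and their ratios of 1.02 and 1.01 were 0.994 and 0.987 with total-count scaling and 1.001 and 0.994 with upper-quartile scaling. By complex, 6 of the 7 complex I genes had ratios of 1.27 to 1.48 and mt-Nd3 had 1.02, the complex III and IV genes had 1.15 to 1.30, and the complex V genes mt-Atp6 and mt-Atp8 had 1.18 and 1.01.

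The 7 mitochondrial complex I genes encode the membrane arm that pumps protons. The highest ratio was that of mt-Nd6 (chrM:13552-14070), the one protein gene on the minus strand of the annotation, with 29503 counts untreated and 44918 with PTH and a ratio of 1.48 (1.46 to 1.5). The other 12 protein genes lie on the plus strand and summed to a ratio of 1.27. mt-Nd2 had 106602 counts untreated and 150588 with PTH (1.37, interval 1.36 to 1.38), and mt-Nd5, whose end overlaps mt-Nd6 on the other strand, had 115212 and 160418 (1.35, interval 1.34 to 1.36). Whether strand was used in counting is not stated. The genes mt-Nd4l and mt-Nd4 are cut as 1 joint mRNA, and their ratios were alike, 1.33 for mt-Nd4l (18889 and 25860 counts) and 1.33 for mt-Nd4 (113076 and 154992). mt-Nd1, the first protein gene after the ribosomal RNAs, had 160028 and 209841 counts (1.27, interval 1.27 to 1.28). mt-Nd3 had 10997 and 11546 counts, a ratio of 1.02 (0.993 to 1.05), and was the one complex I gene of this genome whose interval spanned 1.

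mt-Cytb, the cytochrome b of complex III that carries both quinone sites, had 191247 counts untreated and 248425 with PTH, a ratio of 1.26 (1.254 to 1.269). The catalytic subunits of complex IV came next. mt-Co1, which holds the oxygen-binding haem and copper centre, had the most counts of all members, 402224 untreated and 514841 with PTH, a ratio of 1.24 (1.238 to 1.248). mt-Co2, which takes the electron from cytochrome c, had 89583 and 119954 (1.30, interval 1.29 to 1.31), and mt-Co3 had 73410 and 87164 (1.15, interval 1.14 to 1.16). The complex V genes mt-Atp8 and mt-Atp6 are also read from 1 joint mRNA, but their values were not alike. mt-Atp6, the channel subunit through which protons return, had 105446 and 128472 counts and a ratio of 1.18 (1.17 to 1.19), while mt-Atp8 had 17815 and 18580 and a ratio of 1.01 (0.992 to 1.03). Of the length of mt-Atp8, 21.1% overlaps mt-Atp6 on the same strand, so its count depends on how shared reads were assigned.

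Along the genome, the lowest ratios stood together. The 5 protein genes outside the stretch from mt-Co1 to mt-Nd4, which are mt-Nd1, mt-Nd2, mt-Nd5, mt-Nd6 and mt-Cytb, ran from 1.26 to 1.48 and summed to 1.31. The 8 within it ran from 1.01 to 1.33 and summed to 1.24, with the lowest values from mt-Atp8 through mt-Nd3. The ranges overlapped: mt-Co2 (1.30), mt-Nd4l and mt-Nd4 (both 1.33) within it exceeded mt-Nd1 (1.27) and mt-Cytb (1.26) outside it. That stretch was picked after its values were seen. Of its 8 genes, 7 have the copies on chromosome 1, so for those position and copies cannot be told apart. For mt-Atp8, the lowest, no row of a near-identical copy was annotated. On the mitochondrial genome it lies between mt-Co2 and mt-Atp6. Their copies Gm28661 (chr1:24614885-24615565) and Gm10925 (chr1:24613974-24614651) are likewise neighbours among the annotated copies. Whether the bases between them hold a copy of mt-Atp8 was not tested, so it cannot be taken as free of copies. In level, as scaled CPM per kilobase of exon, mt-Co1 was highest (3877 untreated, 4819 with PTH), mt-Nd1 (2490 and 3171) and mt-Cytb (2490 and 3140) came next, and mt-Nd3 was lowest (471 and 480).

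**Figure D4:**
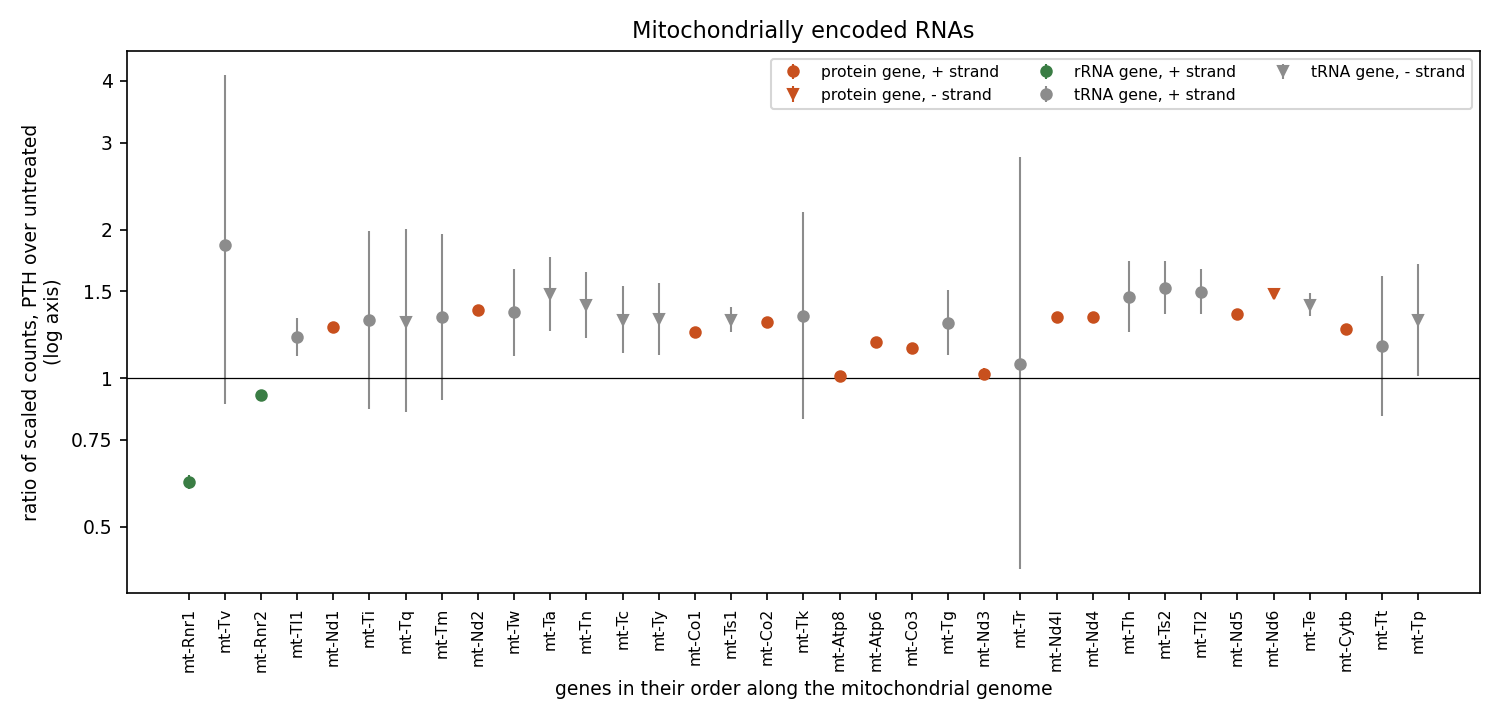
Ratio of scaled counts (PTH divided by untreated) on a log axis, with 95% counting intervals, for 35 genes in their order along the mitochondrial genome. Protein genes (orange) lie between 1.01 and 1.48, the points of the tRNA genes (grey) lie above 1 with wider intervals, some of which span it, and the ribosomal RNA genes (green) lie below 1; triangles mark genes on the minus strand.

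The RNAs that mitochondria use to translate these mRNAs did not share one ratio. The 20 mitochondrial tRNA genes with 20 or more counts summed to 8269 counts untreated and 11619 with PTH, a ratio of 1.37 (1.33 to 1.40), with 13 above 1 and 0 below. Their ratio was 1.36 over the 12 on the plus strand and 1.37 over the 8 on the minus strand, unlike mt-Nd6 and the plus-strand protein genes, which differed. As strand use in counting is not stated, each of these sets may hold reads of either strand. The tRNA rows are 59 to 75 bases long, so reads in them may also come from the uncut long RNAs. The ribosomal RNAs lay on the other side. mt-Rnr1, the small-subunit rRNA, had 9221 counts untreated and 5859 with PTH, a ratio of 0.617 (0.597 to 0.638), and mt-Rnr2, the large-subunit rRNA, had 22757 and 21642, a ratio of 0.924 (0.906 to 0.941). Both had far fewer counts than mt-Co1. The labels give no selection or depletion step, so what fraction of the rRNA the libraries hold is unknown.

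**Figure D5:**
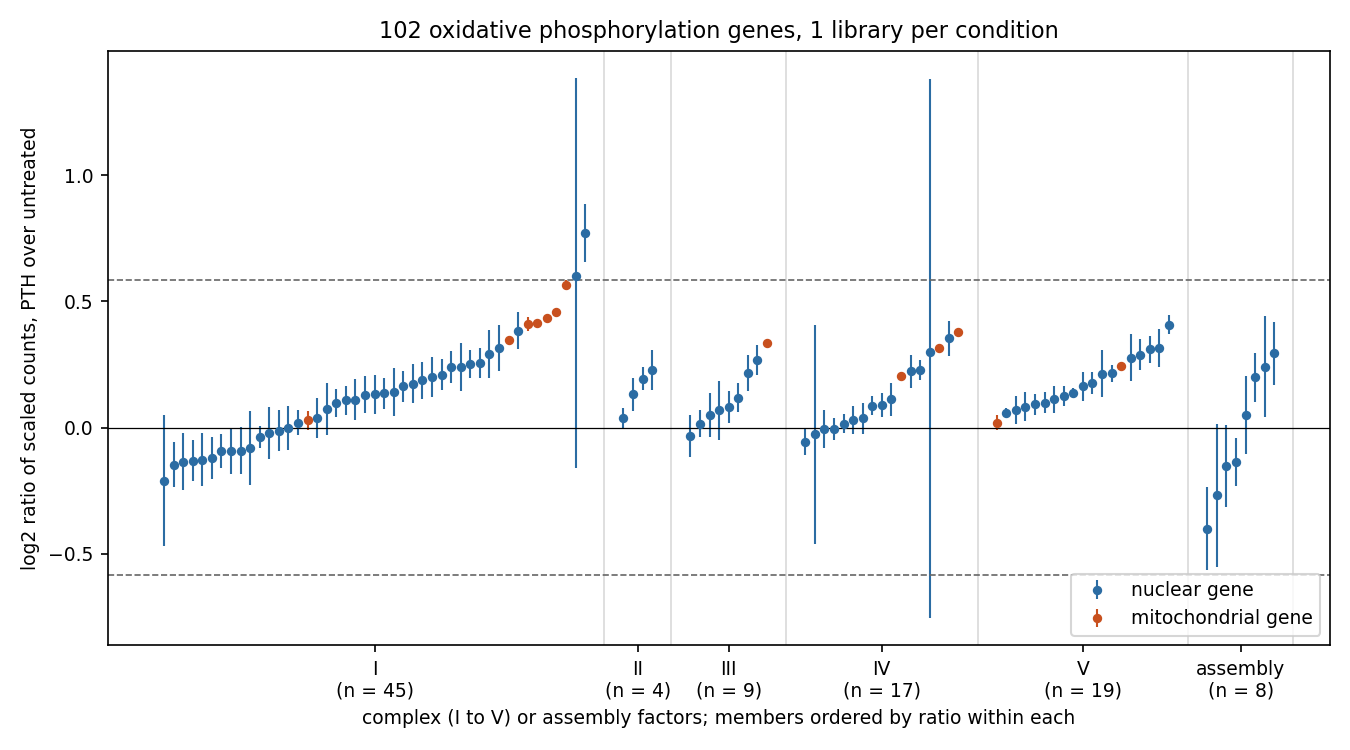
Log2 ratio of scaled counts (PTH divided by untreated) with 95% counting intervals, for the 102 members grouped by complex I to V or as assembly factors and ordered by ratio within each group (nuclear genes blue, mitochondrial genes red). Dashed lines mark 1.5-fold in either direction; 1 nuclear gene, Ndufa12, has its whole interval beyond them, and all 17 nuclear genes of complex V lie above 0.

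The nuclear genes of complex I lay on both sides of 1, more often above it. Of 38, 20 (52.6%) had an interval above 1, 7 (18.4%) below and 11 spanning 1. Of all 89 nuclear members, 59.6% lay above 1 and 11.2% below. The median log2 ratio was 0.11 for complex I and 0.11 for all nuclear members. The 7 core subunits carry the flavin and iron-sulphur centres that take electrons from NADH, and among them 2 lay above 1, 2 below and 3 spanned it. Ndufs1, the largest of them, had 4880 counts untreated and 5984 with PTH (1.19, interval 1.15 to 1.24). Ndufv2, which holds an iron-sulphur centre beside the flavin subunit, had 4895 and 5431 (1.08, interval 1.04 to 1.12). At the other end, Ndufs7, which holds the last iron-sulphur centre before the quinone, had 2171 and 2019 counts (0.903, interval 0.8496 to 0.960). Ndufs3, of the module that hands electrons to the quinone, had 2457 and 2327 (0.920, interval 0.869 to 0.974). Ndufv1, the flavin subunit that binds NADH, had 6364 and 6641 counts (1.01, interval 0.979 to 1.05), and Ndufs8 had 2601 and 2748 (1.03, interval 0.972 to 1.08). The median log2 ratio of these 7 was 0.02, and it was -0.02 with scaling by total counts and -0.01 with upper-quartile scaling, so no direction can be given for them.

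Of the 31 accessory rows of complex I, which surround the core and mostly serve its assembly and stability, 18 lay above 1, 5 below and 8 spanned it. Below Ndufa12 and the low-count pseudogene Ndufs6b (25 counts untreated, 39 with PTH, interval 0.894 to 2.61), the next ratio was that of Ndufb9, with 2491 counts untreated and 3348 with PTH (1.31, interval 1.24 to 1.38). The lowest was that of the pseudogene Ndufb4c, 0.864 (0.721 to 1.03). The accessory subunits below 1 were Ndufa8, Ndufab1, Ndufb6, Ndufc1 and Ndufs6, with ratios from 0.911 to 0.938. Ndufab1, the mitochondrial acyl carrier protein, also serves lipoate synthesis outside complex I, and with its copies added its ratio was 0.985 (0.930 to 1.04), which spanned 1. Ndufb6 overlaps another gene on the opposite strand over 39.0% of its exons.

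All 4 genes of complex II, the enzyme that is also part of the citric acid cycle and has no mitochondrially encoded subunit, lay between 1.03 and 1.17. Sdhb, the iron-sulphur subunit, had 2380 counts untreated and 2870 with PTH (1.17, interval 1.11 to 1.24). The membrane anchors Sdhc and Sdhd had 6811 and 8021 counts (1.14, interval 1.11 to 1.18) and 3573 and 4032 counts (1.10, interval 1.05 to 1.15). Sdha, the flavin subunit that oxidises succinate, had 9515 and 10055 counts, and its interval of 0.998 to 1.06 spanned 1. The median log2 ratio was 0.16.

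Of the 8 nuclear genes of complex III, 4 lay above 1 and 4 spanned it, with a median log2 ratio of 0.07. Uqcrq, which helps to hold cytochrome b in the complex, had the highest ratio, with 4122 counts untreated and 5110 with PTH (1.20, interval 1.16 to 1.26), and Uqcr11 the lowest, with 2354 and 2368 (0.977, interval 0.922 to 1.04). The Rieske iron-sulphur protein Uqcrfs1, which carries electrons to cytochrome c1, had 3893 and 4240 counts (1.06, interval 1.01 to 1.11), and its interval spanned 1 with scaling by total counts. The core proteins Uqcrc1 and Uqcrc2, which had the most counts in this group, had 5742 and 5973 (1.01) and 4648 and 5193 (1.09). Cytochrome c1 itself, Cyc1, which the names leave out, had 4895 and 5433 counts and a ratio of 1.08 (1.04 to 1.12).

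Of the 14 nuclear genes of complex IV, 6 lay above 1, 1 below and 7 spanned it, with a median log2 ratio of 0.06. The most abundant were at nearly the same level in both libraries. Cox6a1 had 12050 counts untreated and 12546 with PTH (1.01, interval 0.986 to 1.04), and Cox4i1, a regulatory subunit of the enzyme, had 10969 and 11992 (1.06, interval 1.03 to 1.09). Cox7a2 had the highest ratio, with 2924 and 3844 counts (1.28, interval 1.22 to 1.34), and Cox6c the lowest, with 5837 and 5777 (0.961, interval 0.927 to 0.997). Cox8a, a small subunit, had 9496 and 11458 counts (1.17, interval 1.14 to 1.20).

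Several complex IV subunits come in forms used by different tissues, and the libraries held almost only the widely expressed forms. Cox6a1 took 99.9% of the counts of the Cox6a pair, with 15 counts untreated and 19 with PTH for Cox6a2, the heart and muscle form. The lung form Cox4i2, the testis forms Cox6b2 and Cox7b2 and the genes Cox8b and Cox8c were listed at 0 in both libraries. Cox7a1, the heart and muscle form of Cox7a, had 5 counts untreated and 0 with PTH. Ndufa4l2, a hypoxia-linked relative of Ndufa4, had 11 untreated and 0 with PTH, beside 6872 and 7527 for Ndufa4. Cox7a2l, which joins complexes III and IV into a supercomplex, had 8354 and 8566 counts (0.996, interval 0.966 to 1.03), so that Cox7a2 made up 25.9% of the Cox7a family untreated (exact binomial interval 25.1 to 26.7) and 31.0% with PTH (30.2 to 31.8). The remaining rows under the filter, Ndufa11b and a second Atp5o row, were also listed at 0. The lowest member above the filter was Cox6a2, with 34 counts in all.

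The ATP synthase was the complex in which every nuclear gene had an interval above 1. The 17 ratios ran from 1.04 for Atp5b to 1.33 for Atp5d, with a median log2 ratio of 0.16. Complexes II and III also had 0 nuclear genes below 1, with 3 of 4 and 4 of 8 above it. The median of complex II was likewise 0.16. Intervals narrow as counts rise, so a gene with many counts, such as Atp5b, clears 1 at a small ratio. With scaling by total counts or by upper quartiles 15 of the 17 remained above 1, and Atp5g1 and Atp5j2 spanned it. With the interval widened by a coefficient of variation of 0.1, 1 of the 17, Atp5d, lay above 1. The catalytic head is made of Atp5a1 and Atp5b, and these had the most counts of all nuclear members and small ratios. Atp5b had 59066 counts untreated and 63409 with PTH (1.04, interval 1.03 to 1.05), and Atp5a1 had 34382 and 38926 (1.10, interval 1.08 to 1.12).

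In the rotor stalk, Atp5d and Atp5e had higher ratios than both of these head subunits, and Atp5c1 lay between the head subunits. Atp5d, the delta subunit (chr10:80138632-80145818), had 9316 counts untreated and 12720 with PTH, a ratio of 1.33 (1.29 to 1.36), and Atp5e, the epsilon subunit bound to it, had 3915 and 4922 (1.22, interval 1.17 to 1.27). Atp5c1, the gamma subunit that turns inside the head, had 9221 and 10359 (1.09, interval 1.06 to 1.12). The membrane ring is built of subunit c, encoded by 3 genes whose mature protein is the same. Atp5g3 had 12835 and 15334 counts (1.16, interval 1.13 to 1.19), Atp5g2 had 8610 and 9448 (1.07, interval 1.04 to 1.10), and Atp5g1 had 5198 and 5610 (1.05, interval 1.01 to 1.09). Atp5g3 made up 48.2% of the counts of the 3 untreated and 50.5% with PTH.

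Among the 9 accessory rows of the synthase, the ratios ran from 1.06 for Atp5j2 to 1.24 for Atp5l, which serves in joining the enzyme into dimers. Atp5h, a part of the outer stalk, had 5053 counts untreated and 6452 with PTH (1.24, interval 1.20 to 1.29). Atp5l has a copy, Gm10221, identical over 309 bases, with 397 and 573 counts, and the pair summed to 1.27 (1.21 to 1.33). Atp5o, which joins the outer stalk to the catalytic head, had 7587 and 8819 counts (1.13, interval 1.10 to 1.16), with 35.6% of its exons overlapped on the opposite strand. Atpif1, the inhibitor of the enzyme, which the names leave out, had 3793 and 4791 counts (1.23, interval 1.17 to 1.28) and is overlapped on the opposite strand over 33.7%.

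The 8 assembly factors of complex I were spread more widely than the subunits, and their direction was mixed. Of them 3 lay above 1, 2 below and 3 spanned it, with a median log2 ratio of -0.04. Ndufaf1, which helps to join early parts of the membrane arm, had 700 counts untreated and 546 with PTH, the lowest ratio of all members at 0.757 (0.676 to 0.848). Ndufaf4 had 1828 and 1713 (0.910, interval 0.852 to 0.973). Ndufaf2 had the highest ratio of the group, with 927 and 1170 counts (1.23, interval 1.12 to 1.34), but 65.7% of its exons are overlapped on the opposite strand. Ndufaf7, a methyltransferase, had 1630 and 1927 (1.15, interval 1.07 to 1.23).

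Levels within a complex differed far more than the ratios did. The nuclear genes of complex V ran from 5.80 to 207.6 scaled CPM per kilobase of exon untreated, with ratios of 1.04 to 1.33. Those of complex IV ran from 0.329 to 255.6, with ratios of 0.961 to 1.28. As scaled CPM per kilobase of exon, Cox6a1 was at 255.6 untreated, Cox8a at 228.5, Atp5b at 207.6, Atp5a1 at 163.3 and Cox4i1 at 105.4, and the median nuclear member was at 30.6 untreated and 33.5 with PTH. The median mitochondrial member was at 1394 and 1626. Lengths are those of all annotated exons of a gene, and which exons were used in these cells was not tested.

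The nuclear members lie on 19 chromosomes, and each motif searched stood in few of their promoters. The RefSeq promoter table (GRCm38.p6), which gives 250 bases before and 50 after each start, held 72 of the 89. Motifs were searched on both strands. The palindromic site of NRF-1, a factor known for respiratory gene promoters, stood in 9.72% of the 72 genes (7) and in 1.07% of all 27025 genes in the table. The YY1 site AAGATGGCG stood in 11.1% (8) against 1.64%, the ETS site CCGGAAGT in 6.94% (5) against 4.31%, and TATAAA in 8.33% (6) against 15.7%. The 7 genes with the NRF-1 letters, which were Atp5g2, Atp5k, Cox6a1, Ndufa11, Ndufaf4, Ndufaf5 and Uqcrc1, had a median log2 ratio of 0.05, beside 0.11 for those without. For the YY1 letters the medians were -0.07 and 0.11, for the ETS letters 0.22 and 0.10, and for TATAAA 0.14 and 0.09. Each of these small sets held genes on both sides of 0, such as Ndufs7 (-0.15) and Atp5j2 (0.08) for YY1.

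Other genes of mitochondrial energy metabolism were counted in the same way, and their counts stand beside 8.93% of all tested rows beyond 1.5-fold, 29.4% above 1 and 29.2% below. Of 20 genes of electron carriers and ubiquinone synthesis, 8 lay above 1, 4 below, and 0 beyond 1.5-fold, with a median log2 ratio of 0.07. Cycs, cytochrome c, had 6623 counts untreated and 7968 with PTH (1.17, interval 1.13 to 1.21). Of 24 genes of the citric acid cycle and pyruvate dehydrogenase, 11 lay above 1 and 5 below, and 1 lay beyond 1.5-fold: Pdp1, the phosphatase that activates pyruvate dehydrogenase, with 1665 and 1043 counts (0.608, interval 0.563 to 0.658). Pdk4, the kinase with the opposite effect, had 13956 and 21615 counts, and its ratio of 1.504 (1.47 to 1.54) did not have its whole interval past that limit. Citrate synthase, Cs, had 16702 and 15792 (0.918, interval 0.898 to 0.938).

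Of 38 assembly factors outside the names, 8 lay above 1 and 12 below, and 1 lay beyond 1.5-fold. Tmem70, which assembles the membrane ring of ATP synthase, had 3195 counts untreated and 1891 with PTH (0.575, interval 0.543 to 0.609), a direction opposite to that of the 17 nuclear synthase genes. Of 78 mitochondrial ribosomal protein genes 20 lay above 1 and 23 below, with a median log2 ratio of 0.01, shares near those over all tested rows. Of 13 transporters and uncoupling proteins 6 lay above 1 and 4 below. Slc25a3, the phosphate carrier that feeds ATP synthase, had 29832 and 36601 counts (1.19, interval 1.17 to 1.21), and the ADP and ATP carriers Slc25a4 and Slc25a5 had ratios of 1.04 and 0.972. Ucp3, an uncoupling protein and the 1 row of this list beyond 1.5-fold, was listed at 0 untreated and had 33 counts with PTH, and Ucp1 was listed at 0 in both.

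Of 24 known regulators of mitochondrial transcription and biogenesis, 6 lay above 1 and 9 below, beside 29.4% and 29.2% of all tested rows, with a median log2 ratio of -0.02. Ppargc1a, the coactivator best known for driving respiratory genes, was listed at 0 in both libraries, and its relative Ppargc1b had 102 counts untreated and 84 with PTH. Pprc1, the third of that family, had 12899 and 11754 (0.885, interval 0.863 to 0.907). Tfam, which packs and transcribes mitochondrial DNA, had 2463 and 2141 (0.844, interval 0.796 to 0.895), Esrra had a ratio of 0.862, Nrf1 1.04, Gabpa 0.988 and Yy1 1.06. The mitochondrial RNA polymerase Polrmt had 1687 and 1522 counts (0.876, interval 0.817 to 0.940) and its partner Tfb2m 1650 and 1555 (0.915, interval 0.853 to 0.981). Intervals wholly above 1 were those of Yy1, Slirp (1.22), Polg2 (1.20), Tfb1m (1.17), Mterf3 (1.15) and Mterf1a. One regulator lay beyond 1.5-fold: Mterf1a, a transcription termination factor that binds mitochondrial DNA just after the rRNA genes, had 13 and 79 counts (5.90, interval 3.26 to 11.6). Its near-identical neighbour Mterf1b had 78 and 37, and the pair summed to 91 and 116, a ratio of 1.24 (0.933 to 1.65) that spanned 1.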

How the data were processed

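RNA of MC3T3-E1 cells was sequenced in 2 libraries, 1 untreated and 1 with PTH, grouped by their labels. The authors deposited 1 table of raw read counts per gene without normalisation; totals were 66302211 and 70036872. The submitters' processing notes name HISAT2 and mm10. For the version of HISAT2, the counting tool, the annotation, strand and multiply matching reads, details were not given in the sources used here.

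Counts were scaled by edgeR 4.0.16 TMM factors (R 4.3.3) on the 16408 rows with 20 or more counts. With 1 library per group the quasi-likelihood test of edgeR could not be fitted. The ratio PTH over untreated has a 95% exact conditional (Clopper-Pearson) interval (Python 3.11.15, scipy 1.17.1). A row is beyond 1.5-fold when its whole interval is. Log2 ratios add 0.5 count. Intervals cover counting error only, and PCR reads are not independent molecules. The interval was tested on simulated data with counting error only, which is what it assumes. That test cannot show how the interval does with variation between cultures. Gene types, positions and exonic lengths came from GENCODE M21 (GRCm38), and near-identical copies from BLAST+ 2.17.0 on its transcripts (at least 95% identity over 150 bases and 50% of the shorter transcript).

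Genes named are the 13 mitochondrial protein genes, the members past 1.5-fold, the highest, lowest and 2 most abundant nuclear members per complex, core subunits, complex II, tissue forms, members listed at 0, and, from other lists, a fixed set of regulators, genes past 1.5-fold and the most abundant. Others, among them the genes with copies, Cox8a, Atp5e, Atp5h, Ndufaf7, Polrmt, Tfb2m, Slirp, Polg2, Tfb1m and Mterf3, were chosen after their values were seen. The members and all lists were chosen with earlier results of these data known. The values of 1 member are not reported here.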

Additional observations from a re-analysis of the deposited data

How the results depend on the processing

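Against 1465 tested rows and 1 member beyond 1.5-fold, a minimum of 100 counts gave 850 rows and a minimum of 1 count 2369 rows and 2 members, the second being Ndufa4l2. Widening the intervals by a coefficient of variation of 0.2 gave 741 rows and 0 members, and by 0.1 it gave 0 members. The lower fold limit gave 2708 rows and 10 members, and a limit of 2 gave 779 rows and 0 members. Members wholly above 1 went from 64 to 7 with a coefficient of variation of 0.1 and to 0 with 0.2, and those below 1 from 10 to 0 with either. The median log2 ratio of the mitochondrial members was 0.312 with total-count scaling, 0.322 with upper-quartile scaling and 0.364 without mt-Atp8, and that of the nuclear members ran from 0.073 to 0.111. Relative to TMM, total-count scaling lowered every log2 ratio (-0.0367), upper-quartile scaling did so less (-0.0264) and DESeq2 1.42.0 size factors least (-0.0014), with 60, 61 and 64 members above 1 and 14, 14 and 11 below. Adding the copies, an alternative chosen after the data were seen, left 0 members beyond 1.5-fold and turned Ndufa12 to 0.926. No paired analysis was possible because each condition had 1 library. For the same reason no library could be left out and the tests of edgeR and DESeq2 were not run.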
